A study of Xenopus laevis with 27 samples.

Results

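Mitochondrial ribosomal protein genes encode the proteins of the ribosome inside mitochondria. They were chosen as every gene whose name in the deposited tables starts with mrpl or mrps followed by a digit. The rule found 88 genes of 42903. They carry 86 gene names on 69 base symbols, because mrpl4.L and mrps2.L each name a pair of gene IDs. By the roles of the proteins in other vertebrates, 55 belong to the large subunit, 32 to the small subunit, and 1, mrps36.S, is no mitoribosome protein but a part of the alpha-ketoglutarate dehydrogenase complex. Of the ribosomal members, 52 have a bacterial counterpart and 35 are specific to mitochondria. The study amputated hindlimbs of adult Xenopus laevis and sequenced RNA of the blastema (the tissue that grows on the wound surface), the stump and the brain. Treated frogs wore a silk device that held progesterone, sham frogs wore a silk device with no hormone, and the remaining frogs wore no device. All groups thus share the amputation. Each of the 9 combinations of tissue and treatment has 3 libraries, 27 in all. The labels give neither the time of sampling nor the frogs that gave each tissue, and they do not say whether libraries of a group come from separate animals. The p-values therefore measure the spread between these samples, which may be technical.

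The mitoribosome translates the few messages of the mitochondrial genome, all of which encode subunits of the respiratory chain and the ATP synthase. All of its proteins are encoded in the nucleus, made in the cytosol and imported, while its ribosomal RNAs come from mitochondrial DNA. Tissues with a high oxidative demand, such as skeletal muscle and brain, hold many mitochondria. X. laevis is allotetraploid, and many genes persist as a pair of homeologs, marked .L and .S after the symbol. Among the members 54 are .L and 34 are .S copies, with 17 base symbols present as both, 35 as .L only and 17 as .S only.

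Several properties of the libraries touch all values below. Libraries held an estimated 178895 to 3459970 reads, and 1 read over 1 kb of gene equalled 0.289 to 5.59 FPKM, a read density scaled to gene length and library size. In 3 groups, blastema with progesterone, stump without a device and brain without a device, libraries 1 and 3 were near-identical, with 0.312% to 0.578% of genes differing beyond sampling noise. They were averaged and counted as 1 sample, which leaves n = 2 there and n = 3 in the other groups. The library labelled brain silk 3 was near-identical to the brain libraries 1 and 3 without a device, with 0.325% and 0.328% of genes differing. Summed levels, the member median for silk against no device, counts of members whose groups did not overlap and limma calls are also given without it. Other brain results include it. A single gene, smad4.1.S, took 22.1% to 39.3% of the reads in blastema silk libraries, 20.7% and 31.1% in stump silk libraries 1 and 2, and 11.5% and 10.2% in brain silk libraries 1 and 2. It also took 25.6% in blastema progesterone library 2 and 16.0% in stump progesterone library 1, and at most 4.02% in any other library. The share of all genes listed at 0 did not follow the order of depth. It was 12.1% in stump silk library 3, at 684469 reads, and 33.3% to 35.3% in the deeper stump libraries without a device. In the blastema without a device it was 16.0% to 24.9%. All-gene medians and shares below are therefore not a neutral background, and the part of these zeros in them was not tested.

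The members were expressed at low to moderate levels in every tissue. Averaged over the 9 groups, single members had 1.81 FPKM (mrps12.L) to 16.8 FPKM (mrps2.L, gene12843), with a median of 5.31 FPKM. The highest averages after mrps2.L belonged to mrpl9.L with 13.9 FPKM, mrpl57.S with 12.2 FPKM, mrps6.S with 11.6 FPKM and mrpl21.L with 11.012 FPKM. Mrpl9, mrpl21 and mrps6 have bacterial counterparts, while mrpl57 is specific to mitochondria. The evidence behind these levels was thin, with an estimated 56.4 to 660 reads per member over all 27 libraries and a median of 192.

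Summed over the 88 members, the level was highest in the stump without a device and in the brain. In stump libraries 1, 2 and 3 without a device it was 678, 693 and 677 FPKM. It was 351, 172 and 588 FPKM in the stump with silk and 406, 477 and 366 FPKM in the stump with progesterone. All stump libraries from limbs with a device lay below those without one, and stump silk library 3 stood well above the other libraries of its group. Group means over samples were 685 ± 10.6 FPKM without a device (SD, n = 2), 370 ± 209 FPKM with silk (SD, n = 3) and 416 ± 56.3 FPKM with progesterone (SD, n = 3). Brain libraries ranged from 608 to 697 FPKM, with means of 662 ± 30.7 (SD, n = 2) without a device, 641 ± 48.5 (SD, n = 3) with silk and 654 ± 11.6 (SD, n = 3) with progesterone. The brain groups overlapped each other, but without silk library 3 the remaining silk libraries, at 608 and 618 FPKM, lay below those without a device. With smad4.1.S left out of the total this order was lost, with 687, 688 and 702 FPKM in brain silk libraries 1, 2 and 3 and 641 to 697 FPKM without a device. Blastema libraries ranged from 298 to 531 FPKM, with means of 464 ± 83.0 (SD, n = 3) without a device, 388 ± 115 (SD, n = 3) with silk and 448 ± 80.3 (SD, n = 2) with progesterone. Blastema groups overlapped too. Here leaving out smad4.1.S turned the order of silk and no device, with 485 to 665 FPKM for silk and 375 to 537 FPKM for no device.

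**Figure D1:**
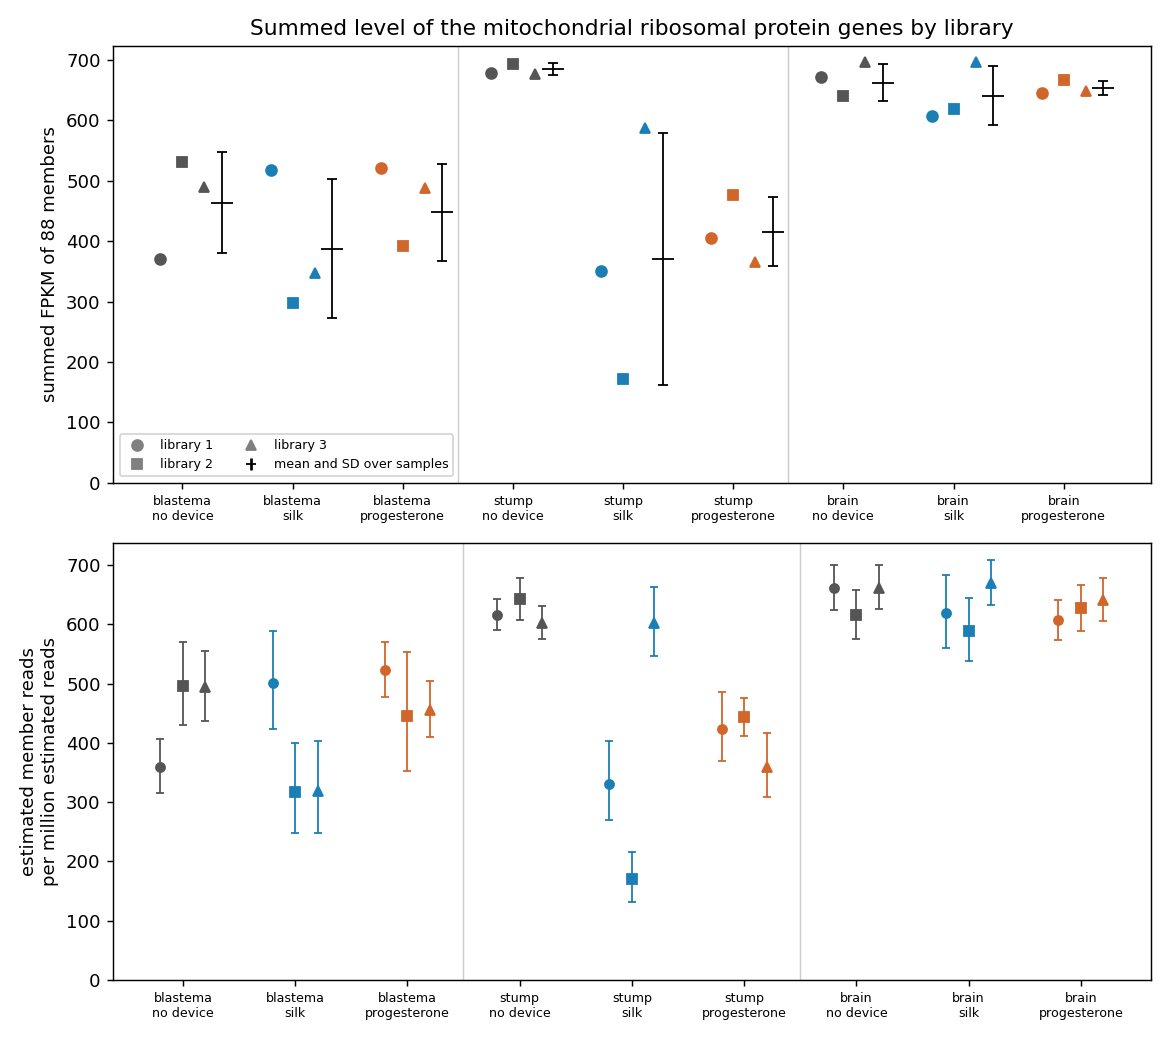
The upper panel plots the summed FPKM of the 88 members in each of the 27 libraries by tissue and treatment, with the mean and SD over samples. The lower panel plots estimated member reads per 1000000 estimated reads with exact Poisson intervals. The 3 stump libraries without a device sit at 677 to 693 FPKM, above all 6 stump libraries with a device.

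The share of estimated reads that fell on members gave a similar picture. In stump libraries without a device, members took 616, 643 and 603 reads of every 1000000, with exact 95% Poisson intervals that together span 575 to 679. With silk they took 331 (interval 270 to 403), 170 (131 to 215) and 603 (546 to 664) reads on that scale, and with progesterone 424 (369 to 486), 443 (412 to 477) and 360 (309 to 417). Stump silk library 3 was therefore within the counting error of the libraries without a device, and the other 5 libraries with a device were below them. Intervals cover counting error only, since reads are not independent molecules. Leaving smad4.1.S out of the total gave 443, 249 and 592 FPKM with silk and 483, 481 and 373 FPKM with progesterone, against 678 to 694 FPKM without a device.

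Members listed at 0 were most numerous in shallow libraries, but depth did not order them. Over 88 members and 27 libraries, 332 values were 0, and 9 members were at 0 in no library. The numbers of members at 0 in libraries 1, 2 and 3 were 20, 43 and 39 in blastema with silk, 4, 49 and 5 in blastema with progesterone, and 7, 17 and 9 in blastema without a device. In the stump they were 35, 44 and 6 with silk, 19, 3 and 19 with progesterone, and 0, 1 and 1 without a device. In the brain the highest number was 7. Over the 27 libraries the median share at 0 was 5.68% for members and 28.0% for all genes. Some shallow libraries went the other way. Blastema progesterone library 2, the shallowest of all, listed 55.7% of the members at 0 against 31.6% of all genes, and stump silk library 2 listed 50% against 48.2%. The members most often at 0 were mrps25.L and mrpl4.L (gene44590), each in 10 libraries, and mrpl3.L, mrpl32.L and mrps2.L (gene40180), each in 9. The 5 libraries with 35 or more members at 0 each held 392772 estimated reads or fewer. At the top of that range, however, stump silk library 2 listed 44, while blastema silk library 1 listed 20 at 296801 reads, and blastema library 2 without a device listed 17 at 403865 reads. The part of depth in these numbers was not tested. A member listed at 0 in a shallow library may have been expressed at several FPKM.

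**Figure D2:**
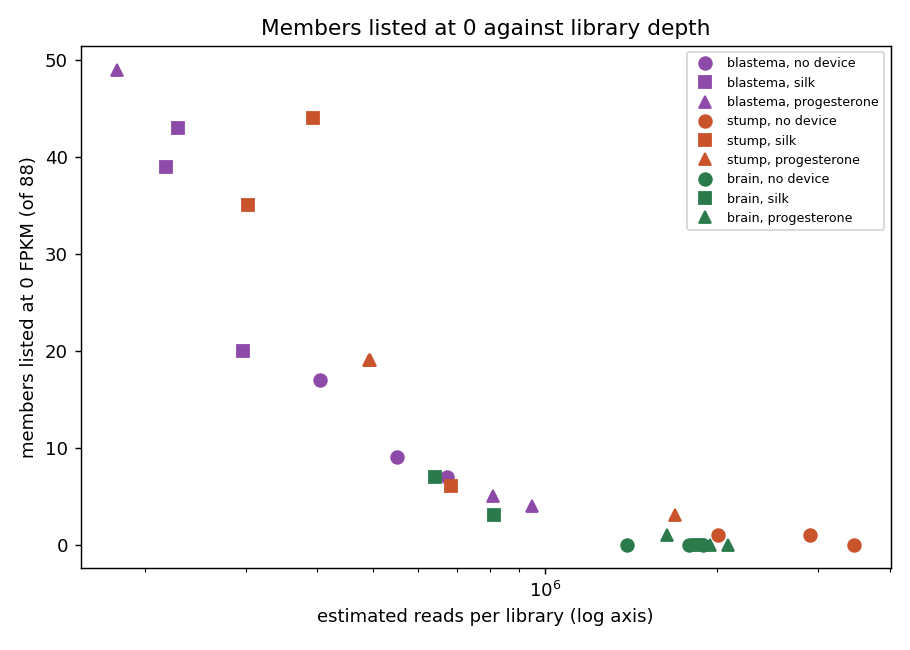
Each point is a library, with its estimated reads on a log axis and the number of the 88 members listed at 0 FPKM on the vertical axis, coloured by tissue and shaped by treatment. The 3 deepest stump libraries list 0 to 1 members at 0, and the shallowest blastema library lists 49.

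The comparison of device and no device asks how the local treatment changed RNA in each tissue. In the stump, most members had lower mean log2 levels in limbs that had carried the silk device without hormone. Of 86 members tested (2 did not pass the filter of 1 FPKM in 3 samples), 78 had a lower and 8 a higher mean log2 level, with a median difference of -1.16 on the log2(FPKM + 1) scale. The median of all 29972 genes tested moved the other way, by 0.52, so the members' median lay 1.67 below it (-1.67). Here and below, counts of genes lower or higher in mean refer to this scale, on which a sample at 0 weighs heavily. A gene can therefore count as lower with a higher mean FPKM. Mrpl2.L, for example, averaged 7.06 FPKM with silk and 5.61 FPKM without a device, with a log2 difference of -0.38 ± 1.07 (SE). In 33 members every silk sample was below every sample without a device, against 6.3% of all genes tested, and in 2 members every silk sample was above, against 23.5%. Limma called 0 members at an adjusted p under 0.05, as it did 0% of all genes, with adjusted p of at least 0.184 for members. At an unadjusted p under 0.05, 19 members were lower and 2 higher, against 3.19% and 9.8% of all genes, and limma-voom on estimated reads called 2 as higher and 0 as lower, against 23.3% and 1.62% of all genes. Limma-voom adds the same small count to each library, which raises genes near 0 in shallower libraries, here those with silk. Its calls and all-gene shares carry this offset.

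With progesterone in the device most members also had lower mean log2 levels in the stump than without a device. Of 86 members tested, 73 were lower and 13 higher in mean, with a median difference of -0.79 on the log2(FPKM + 1) scale against 0.57 over all genes, a distance of -1.36. Every progesterone sample lay below every sample without a device in 33 members, against 5.83% of all genes, and above in 3, against 30.8%. Limma called 0 members and 0% of all genes at an adjusted p under 0.05. With an unadjusted p under 0.05, 4 members were lower and 0 higher, against 2.04% and 7.82% of all genes, and limma-voom called 0, against 4.03% of all genes as higher and 0.777% as lower. The silk and progesterone comparisons share the stump samples without a device and so are not independent. Leaving out any 1 sample kept the distance of the members' median from that of all genes at -1.76 to -1.41 for silk and -1.60 to -1.11 for progesterone.

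**Figure D3:**
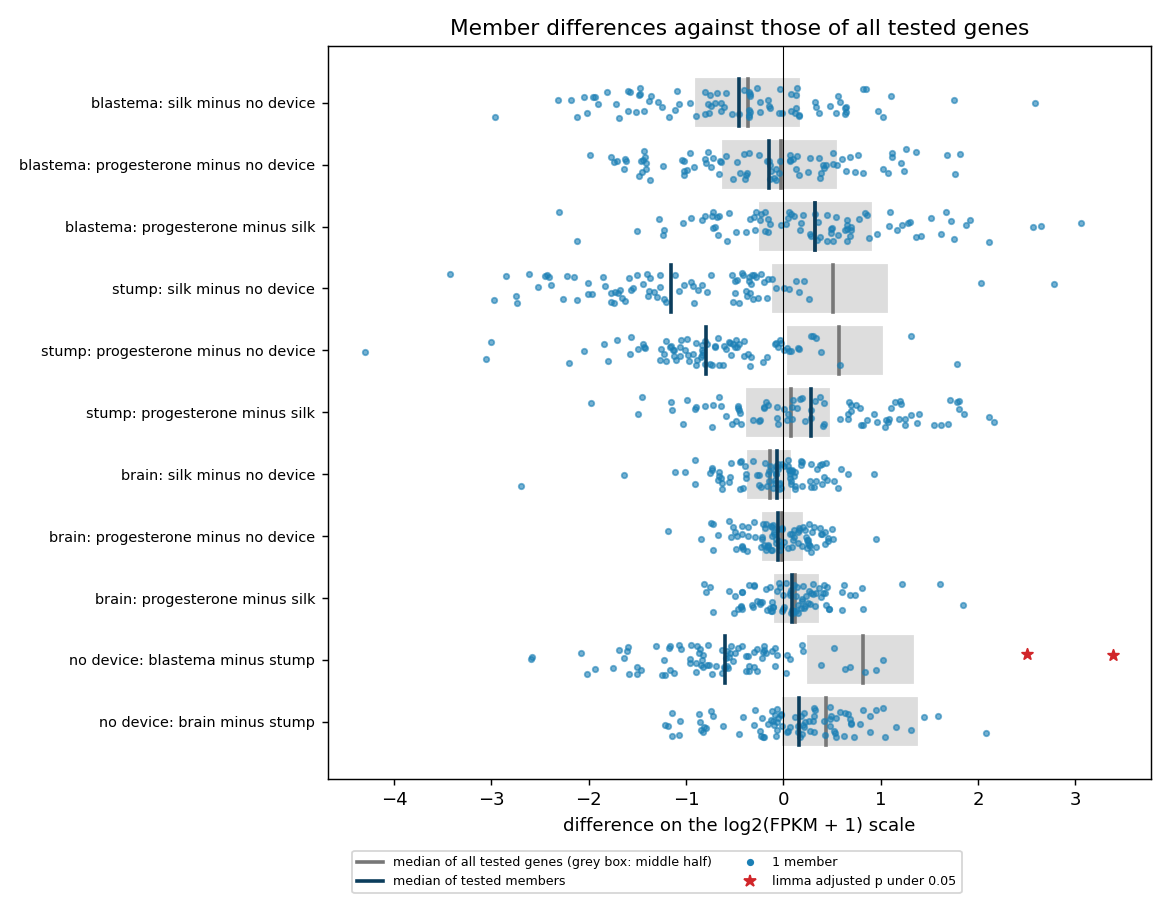
Points give the difference of each tested member on the log2(FPKM + 1) scale in 11 comparisons, dark bars the median of tested members, grey bars the median of all tested genes and grey boxes the middle 50% of them. The members' median is -1.16 for silk and -0.79 for progesterone in the stump, left of the all-gene medians of 0.52 and 0.57, and the 2 stars mark members past an adjusted p of 0.05 by limma.

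By role, members of both subunits had lower medians in the stump with a device. In the large subunit 50 of 53 tested members had a lower mean log2 level with silk, with a median of -1.30. All silk samples were lower in 21 of them, against 6.3% of all genes. In the small subunit 27 of 32 were lower, with a median of -0.65, and all samples were lower in 11, against the same share. With progesterone the medians were -0.78 for both the large and the small subunit. All progesterone samples were lower in 24 and 8 members, against 5.83% of all genes. Members with a bacterial counterpart had a median of -0.93 with silk and -0.81 with progesterone, and those specific to mitochondria -1.35 and -0.77. The summed level of the large subunit averaged 464 ± 11.2 FPKM without a device (SD, n = 2), 234 ± 133 with silk and 279 ± 37.0 with progesterone (SD, n = 3 each). For the small subunit the means were 193 ± 8.49, 130 ± 72.3 and 131 ± 19.1 FPKM in the same order.

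Mrpl16, a large subunit protein with a bacterial counterpart, read 11.3, 10.3 and 11.98 FPKM for the .S copy in stump libraries 1, 2 and 3 without a device, 0, 2.21 and 3.83 FPKM with silk, and 7.07, 4.14 and 3.55 FPKM with progesterone. All libraries with a device were lower than all without. Its difference with silk was -2.26 ± 0.71 (SE) on the log2 scale, with a limma adjusted p of 0.218 (3 samples against 2). Mrps6.S, a small subunit protein, read 11.6, 11.3 and 17.4 FPKM without a device, 0, 4.43 and 0 FPKM with silk, and 3.54, 8.31 and 3.56 FPKM with progesterone. Libraries with a device were again below all without, and 2 of 3 silk libraries were at 0. The silk difference of mrps6.S was -2.97 ± 0.79 (SE), the smallest p of the members, with a limma adjusted p of 0.184.

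Mrpl51.L, specific to the mitochondrial large subunit, read 11.03, 18.96 and 16.2 FPKM without a device, 0, 0 and 3.02 FPKM with silk and 9.09, 10.7 and 0 FPKM with progesterone. Its silk difference was -3.43 ± 1.05 (SE), with a limma adjusted p of 0.212. Mrps30.S, which despite its name sits in the large subunit, was listed at 0 in all 3 silk libraries of the stump, against 2.02, 4.24 and 2.13 FPKM without a device and 1.57, 5.07 and 4.74 FPKM with progesterone. Here progesterone overlapped no device and silk alone was listed at 0. In those silk libraries 1 read over 1 kb of gene equalled 3.30, 2.55 and 1.46 FPKM, near the levels of the other groups. The differences of mrps30.S were -2.01 ± 0.59 (SE) for silk against no device (limma adjusted p = 0.201) and 2.16 ± 0.53 (SE) for progesterone against silk (limma adjusted p = 0.530). The other copy, mrps30.L, read 2.51, 2.80 and 8.89 FPKM with silk and 3.52, 8.32 and 6.01 FPKM without a device, and these groups overlapped.

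Mrpl21.L, a large subunit protein, read 19.7, 25.6 and 20.3 FPKM in the stump without a device, 4.99, 11.5 and 6.64 FPKM with silk and 0, 8.09 and 1.80 FPKM with progesterone. No library with a device reached those without. Its progesterone difference was -3.00 ± 0.84 (SE) with a limma adjusted p of 0.324. Mrpl13.S, which has a bacterial counterpart, read 15.8, 16.8 and 14.9 FPKM without a device, 5.30, 0 and 4.22 FPKM with silk and 0, 7.63 and 0 FPKM with progesterone, a progesterone difference of -3.05 ± 1.05 (SE, limma adjusted p = 0.395). For mrpl4, a protein of the peptide exit tunnel, the gene44590 copy read 17.0, 14.7 and 30.4 FPKM without a device and was listed at 0 in all 3 progesterone libraries, a difference of -4.30 ± 1.13 (SE, limma adjusted p = 0.294). At an estimated length of 0.168 kb this copy is the shortest member, and 1 of its 3 silk libraries read 19.5 FPKM while the others were at 0. Mrps36.S, the dehydrogenase part, read 37.7, 21.6 and 31.2 FPKM without a device, 0, 5.01 and 11.6 FPKM with silk and 4.01, 11.8 and 4.02 FPKM with progesterone, with a silk difference of -2.74 ± 0.96 (SE, limma adjusted p = 0.263). Every library with a device was below every library without one.

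Further small subunit members were followed by library. Mrps34.S, specific to mitochondria, read 20.9, 26.2 and 16.4 FPKM without a device, 6.22, 7.96 and 11.02 FPKM with silk and 5.09, 18.3 and 8.95 FPKM with progesterone. Progesterone library 2 reached the range of the libraries without a device, but lay below both samples once libraries 1 and 3 were averaged, and silk lay below in every library. Mrps27.L, a pentatricopeptide repeat protein, read 6.89, 4.1 and 5.82 FPKM without a device, 3.03, 1.16 and 2.68 FPKM with silk and 1.86, 2.99 and 0.93 FPKM with progesterone, so that the device groups lay below. Mrps12.S, whose bacterial counterpart sits at the decoding centre, read 6.49, 4.99 and 5.70 FPKM without a device and 5.52, 8.48 and 5.31 FPKM with silk, and these groups overlapped. Mrps5.L and mrps7.L both have bacterial counterparts. Mrps5.L read 3.61 to 5.72 FPKM in the libraries without a device and 1.51 to 3.93 FPKM with silk, and every silk library was below both samples without a device once libraries 1 and 3 were averaged. Mrps7.L read 4.35 to 5.73 and 1.74 to 6.74 FPKM and overlapped.

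The stalk of the large subunit, where translation factors bind, includes mrpl10, mrpl11 and mrpl12. Mrpl12.L read 9.35, 4.87 and 8.41 FPKM in the stump without a device, 1.09, 0.84 and 7.17 FPKM with silk and 1.99, 3.49 and 0.67 FPKM with progesterone. Mrpl11.S read 9.25, 13.02 and 9.59 FPKM without a device, 0, 1.47 and 6.01 FPKM with silk and 8.32, 8.42 and 8.36 FPKM with progesterone. Mrpl10.S read 3.13, 3.59 and 5.79 FPKM without a device, 0, 0 and 3.80 FPKM with silk and 0, 9.31 and 2.45 FPKM with progesterone. Silk library 3 was the highest silk library for all 3 genes and overlapped the samples without a device for mrpl12.L and mrpl10.S. Mrpl38.L, specific to the large subunit, read 0, 0 and 3.07 FPKM with silk and 8.50, 4.15 and 5.69 FPKM with progesterone, a progesterone-minus-silk difference of 2.11 ± 0.63 (SE, limma adjusted p = 0.870), and mrpl11.S differed by 1.86 ± 0.67 (SE, limma adjusted p = 0.997). Mrpl44.S and mrpl45.L, specific to mitochondria, read 0 to 5.82 and 0 to 5.30 FPKM with silk against 2.73 to 4.93 and 5.56 to 7.42 FPKM without a device.

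A few members were higher, not lower, with a device. Mrps35.S, specific to the mitochondrial small subunit, read 0.17, 0.10 and 0.28 FPKM in the stump without a device, 4.61, 1.01 and 8.55 FPKM with silk and 3.28, 0.83 and 2.03 FPKM with progesterone. All libraries with a device exceeded all without. Its differences were 2.04 ± 0.72 (SE) for silk, with a limma adjusted p of 0.267, and 1.31 ± 0.72 (SE) for progesterone, with a limma adjusted p of 0.552. The other copy, mrps35.L, read 12.5, 16.4 and 15.9 FPKM without a device, 2.59, 1.99 and 7.83 FPKM with silk and 15.9, 8.38 and 3.19 FPKM with progesterone. It was lower with silk in every library, a difference of -1.83 ± 0.72 (SE, limma adjusted p = 0.320). The .L share of the summed mrps35 level was 98.95% without a device, 46.7% with silk and 81.7% with progesterone. Mrps2.L (gene12843), which has a bacterial counterpart, read 1.15, 1.66 and 1.88 FPKM without a device, 21.7, 5.55 and 37.0 FPKM with silk and 17.7, 0.81 and 20.04 FPKM with progesterone. With silk all 3 libraries were higher (difference 2.78 ± 1.08, SE, limma adjusted p = 0.310), and with progesterone library 2 stayed below. Single copies whose sequences are alike can share reads of 40 nt, so the split of a pair between its copies is uncertain.

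**Figure D4:**
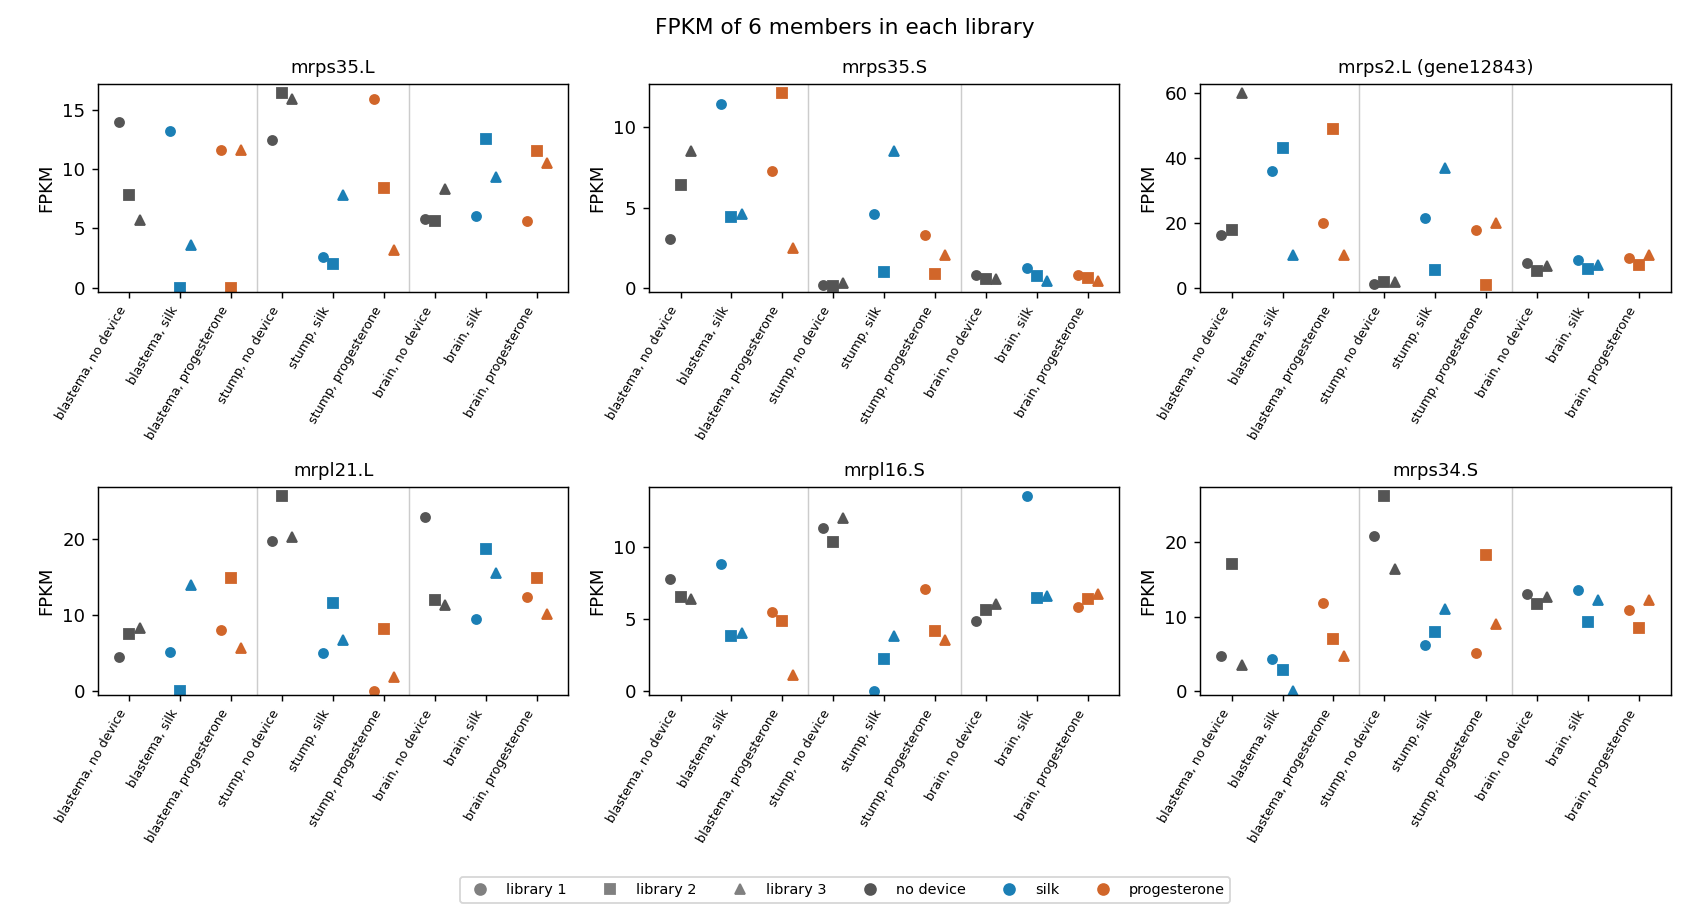
FPKM of 6 members in each library, by tissue and treatment, with symbols for libraries 1 to 3. Mrps35.S and mrps2.L (gene12843) are low in the stump without a device, at 0.10 to 0.28 and 1.15 to 1.88 FPKM, with mrps2.L (gene12843) at 0.81 FPKM in stump progesterone library 2, while mrpl21.L, mrpl16.S and mrps34.S are higher there than in most stump libraries with a device.

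The authors' deposited table for silk against no device in the stump lists 40 members as lower and 2 as higher at a q-value under 0.05, against 8.32% and 18.2% of its genes. The authors' deposited table for progesterone against no device in the stump lists 43 members as lower and 1 as higher, against 7.03% and 8.28%. In the authors' deposited table mrpl16.S has the smallest member q-value for silk, with a log2 fold change of -3.25 and q = 2.32e-06, and mrpl21.L for progesterone, with -2.83 and q = 6.97e-08. Mrps35.S is the member with the smallest q-value among those higher in the authors' deposited table, with a log2 fold change of 3.42 and q = 5.57e-06 for silk and 2.18 and q = 0.0163 for progesterone. The other 7 deposited tables list 0 members at that threshold, the smallest member q-value in the authors' deposited table for progesterone against no device in the blastema being 0.0669. The kind of test behind these tables is not stated, and they do not show whether near-identical libraries were counted as 1.

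Other gene groups moved in the same stump libraries. Skeletal muscle markers summed to 50621 to 77908 FPKM without a device, 5249 to 11311 with silk and 4177 to 26819 with progesterone. All 22 tested copies of the 15 marker symbols were lower in every sample with silk and with progesterone than in every sample without a device. Over all genes those shares were 6.3% for silk and 5.83% for progesterone. None of the copies was at 0 in a stump library. Erythrocyte markers summed to 3559 to 5325 FPKM without a device, 22616 to 69466 with silk and 29089 to 90678 with progesterone. For silk and for progesterone 8 of 8 tested copies were higher in mean, against 71.45% and 76.58% of all genes. In bulk tissue fewer cells of a type and less RNA per cell cannot be told apart. The part of muscle, erythrocytes, depth and smad4.1.S in the members' levels was not tested. In stump silk libraries 1, 2 and 3 the members summed to 351, 172 and 588 FPKM. Estimated reads there were 302694, 392772 and 684469, and smad4.1.S shares were 20.7%, 31.1% and 0.714%. Muscle marker sums were 5249, 10351 and 11311 FPKM, and erythrocyte marker sums 27628, 22616 and 69466 FPKM.

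Genes of related machineries were set beside the members. All 118 tested subunits of the respiratory chain, the complexes that receive the products of the mitoribosome, were lower in mean in the stump with silk and with progesterone, with medians of -2.09 and -1.71 on the log2 scale; 0 passed limma's adjusted p of 0.05 and 86 and 60 were lower at an unadjusted p under 0.05, against 3.19% and 2.04% of all genes. Proteins of the cytosolic ribosome, 118 copies, had medians of -0.30 and -0.05. Other genes of mitochondrial translation, a list of 68 symbols of which 52 were found as 58 copies and 55 copies tested, had medians of -0.13 for silk and -0.26 for progesterone, nearer to 0 than the members, with 4 and 10 copies not overlapping in the lower direction, against 6.3% and 5.83% of all genes, and 8 and 5 in the higher one, against 23.5% and 30.8%. By limma 0 of the 55 passed in either comparison, and 0 did at an unadjusted p under 0.05. Within that list, mitoribosome proteins with other names (aurkaip1.L, chchd1.L, dap3.L, gadd45gip1.S and ptcd3.L) had a median of -1.11 with silk, with all 5 lower in mean, and -0.29 with progesterone. Translation factors, 10 copies, had -0.43 and -0.45, assembly and rRNA modification factors, 16 tested copies, -0.09 and -0.52, aminoacyl-tRNA synthetases, 13 tested copies, -0.06 and 0.14, and genes of mitochondrial DNA transcription and maintenance, 11 copies, 0.17 and -0.12.

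Lrpprc.L, which stabilises mitochondrial messages, averaged 21.6 ± 0.495 FPKM in the stump without a device (SD, n = 2), 9.07 ± 4.84 with silk and 8.56 ± 4.79 with progesterone (SD, n = 3 each). Every sample with a device was below every sample without. Tfam.L, a packaging and transcription factor of mitochondrial DNA, did not share this order, at 4.29 ± 0.569 FPKM (SD, n = 2), 6.44 ± 2.26 and 5.23 ± 1.67 FPKM (SD, n = 3 each). Gfm1.L, an elongation factor, was at 2.38 FPKM in both stump samples without a device and at 0 to 4.83 FPKM with silk and 0 to 1.88 FPKM with progesterone.

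The hormone itself is compared where both groups carried the device. In the stump, 54 of 86 tested members were higher with progesterone and 32 lower, with a median of 0.28 on the log2 scale against 0.08 over all genes. Every progesterone sample was above every silk sample in 4 members, against 3.21% of all genes, and below in 1, against 3.08%, shares near the background. No call was made by limma, with 0 members and 0% of all genes at an adjusted p under 0.05. Before adjustment, 5 members were higher and 1 lower at p under 0.05, against 1.76% and 2.08% of all genes, and limma-voom called 0 members and 0% of all genes.

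In the blastema the medians of the members lay within 0.13 of those of all genes. For silk against no device the median of 87 tested members was -0.46 on the log2 scale and that of all genes -0.36, with 61 members lower and 26 higher. All samples were lower in 8 members, against 12.1% of all genes, and higher in 1, against 2.68%. For progesterone against no device the median was -0.14 against -0.02, with 7 members lower in all samples, against 11.2%, and 8 higher, against 6.63%. For progesterone against silk it was 0.32 against 0.33, with 8 members higher in all samples, against 11.5%, and 2 lower, against 2.49%. In each of the 3 blastema comparisons limma called 0 members and 0% of all genes at an adjusted p under 0.05. Limma-voom also called 0 members, against 0.0134% of all genes higher and 0.319% lower for silk, 0.00537% lower for progesterone against no device and 0% for progesterone against silk. At an unadjusted p under 0.05, 2 members were higher and 7 lower with silk than without a device, against 1.06% and 6.61% of all genes. For progesterone against no device the counts were 1 and 0, against 1.41% and 2.29%, and for progesterone against silk 3 and 2, against 4.87% and 0.77%. The distance of the members from all genes was -1.34 for progesterone against no device and -1.15 against silk when the averaged progesterone libraries 1 and 3 were left out, which leaves only the shallowest library in that group.

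Mrps25.S, specific to the small subunit, read 1.80, 0 and 0 FPKM without a device, 7.56, 10.5 and 5.15 FPKM with silk and 3.83, 0 and 0 FPKM with progesterone. Silk libraries were all above the others, with differences of 2.58 ± 0.68 (SE, limma adjusted p = 0.265) against no device and -2.31 ± 0.76 (SE, limma adjusted p = 0.746) for progesterone against silk. Mrpl32.S, a protein matured by a mitochondrial protease, was listed at 0 in all silk libraries against 1.54, 2.58 and 3.79 FPKM without a device and 7.67, 11.6 and 1.28 FPKM with progesterone. Its differences were -1.82 ± 0.58 (SE, limma adjusted p = 0.414) for silk against no device and 3.06 ± 0.65 (SE, limma adjusted p = 0.553) for progesterone against silk. Mrpl52.L, specific to the large subunit, was also listed at 0 in all silk libraries, against 4.18, 5.90 and 12.3 FPKM without a device (difference -2.96 ± 0.85, SE, limma adjusted p = 0.321). These zeros stand in the shallow silk libraries of the blastema, where 1 library alone lists 43 members at 0. For progesterone, mrpl32.L read 5.29, 7.03 and 1.44 FPKM against 3.73, 0 and 0 FPKM without a device and 0 in all silk libraries, with differences of 1.82 ± 0.80 (SE, limma adjusted p = 0.994) and 2.57 ± 0.80 (SE, limma adjusted p = 0.718). Mrps5.L read 3.76, 0 and 1.47 FPKM against 4.42, 5.90 and 5.41 FPKM without a device, and mrps7.L 6.07, 0 and 0.71 FPKM against 4.69, 4.68 and 7.34 FPKM (differences -1.71 ± 0.80 and -1.62 ± 0.83, SE, limma adjusted p = 0.994 for both).

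The brain was sampled away from the amputated limb. Median differences on the log2 scale were -0.06 for silk against no device, -0.05 for progesterone against no device and 0.09 for progesterone against silk, over 87 tested members, beside -0.14, -0.02 and 0.12 over all genes. All samples were higher in 5, 7 and 3 members, against 3.75%, 8.82% and 9.8% of all genes in that order, and lower in 4, 8 and 6, against 13.5%, 11.5% and 3.19%. Limma called 0 members in any of them at an adjusted p under 0.05, beside 0% of all genes in the first and second and 0.0147% higher and 0.00736% lower in the last, and limma-voom called 0 members, against at most 0.00736% of all genes in either direction. At an unadjusted p under 0.05 the members higher and lower were 1 and 3 for silk against no device, against 0.979% and 3.73% of all genes, 0 and 2 for progesterone against no device, against 1.53% and 1.37%, and 2 and 2 for progesterone against silk, against 6.25% and 1.68%. Without brain silk library 3, the distance of the members' median from that of all genes was 0.05 for silk against no device, where it was 0.08 with it. Leaving that library out, all samples were higher in 8 members and lower in 17 for silk against no device, against 8.08% and 28.8% of all genes, and higher in 14 and lower in 10 for progesterone against silk, against 22.8% and 6.68%.

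Mrpl4.L (gene44590) was the 1 member that limma called in the brain without that library, against 0.0225% of all genes higher and 0.0751% lower for silk against no device and 0.244% and 0.0263% for progesterone against silk. It read 19.8, 12.7 and 18.7 FPKM without a device, 0, 0 and 15.9 FPKM with silk and 8.47, 10.8 and 6.06 FPKM with progesterone, so that silk library 3 alone resembled the libraries without a device. Its silk difference was -2.70 ± 1.14 (SE, limma adjusted p = 0.940) with the library and -4.06 ± 0.32 (SE, limma adjusted p = 0.0260) without it, and its progesterone-minus-silk difference without it was 3.21 ± 0.29 (SE, limma adjusted p = 0.0236). The silk libraries that list it at 0 are the shallowest brain libraries. At an estimated 0.168 kb this copy is the shortest member, so its values there rest on few reads. Without silk library 3 the remaining silk values are both 0, so the small SE partly reflects a group without spread at the floor. Mrps30.L read 5.96, 9.31 and 6.05 FPKM without a device, 3.54, 5.62 and 3.29 FPKM with silk and 2.19, 2.33 and 3.91 FPKM with progesterone. Both device groups lay below, with differences of -0.75 ± 0.31 (SE, limma adjusted p = 0.940) and -1.19 ± 0.31 (SE, limma adjusted p = 1). The silk difference includes silk library 3, near-identical to libraries 1 and 3 without a device. It read 3.29 FPKM against their 5.96 and 6.05 FPKM, so mrps30.L also differed between near-identical libraries. Mrps18b.S read 19.0, 11.3 and 9.94 FPKM with silk against 9.44, 4.42 and 8.12 FPKM without a device (difference 0.94 ± 0.37, SE, limma adjusted p = 0.940). Mrps24.S and mrps10.S, small subunit members, differed by -0.74 ± 0.28 and 0.46 ± 0.21 (SE) for progesterone against no device, at 4.54 to 6.26 against 5.73 to 11.7 FPKM and 8.95 to 10.8 against 5.73 to 9.77 FPKM (limma adjusted p = 1 for both). Mrps6.S, mrpl33.L and mrpl23.S differed by 0.82 ± 0.29, -0.76 ± 0.28 and 0.47 ± 0.18 (SE) between progesterone and silk, with limma adjusted p of 0.564, 0.588 and 0.602.

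Without a device, blastema and stump differed in the direction of lower member levels in the blastema. Of 88 members, 74 were lower in mean in the blastema and 14 higher, with a median of -0.60 on the log2 scale against 0.82 over all 42326 genes tested, a distance of -1.43. All samples were lower in 26 members, against 4.91% of all genes, and higher in 4, against 39%. The large subunit had 48 of 55 and the small subunit 25 of 32 members lower, both with a median of -0.60. By limma, 2 members passed an adjusted p of 0.05 as higher and 0 as lower, against 3.77% and 0.307% of all genes. At an unadjusted p under 0.05, 7 were lower and 2 higher, against 1.8% and 24.4% of all genes, and limma-voom called 4 as higher and 8 as lower, against 60.9% and 2.04% of all genes. The offset of limma-voom raises genes near 0 in the shallower blastema libraries, so its calls and shares of higher genes are not a plain background here. Muscle markers summed to 15419 to 30078 FPKM in the blastema without a device, below the stump in 21 of 22 copies in every sample, and their part in this difference was not tested. These blastema libraries were also shallower, with 403865 to 674450 estimated reads against 2005060 to 3459970 in the stump. They listed 7, 17 and 9 members at 0, against 0, 1 and 1. The part of depth was not tested either.

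The 2 members that limma called as higher in the blastema were mrps35.S and mrps2.L (gene12843). Mrps35.S read 3.03, 6.43 and 8.50 FPKM in the blastema against 0.17, 0.10 and 0.28 FPKM in the stump, a difference of 2.5 ± 0.60 (SE) with a limma adjusted p of 0.0258. Over all alternative settings its difference stayed between 2.14 and 4.81 and its adjusted p ran from 0.000137 to 0.206. The largest difference and the smallest adjusted p came from limma-voom, whose offset raises genes near 0 in shallower libraries. Mrps2.L (gene12843) read 16.2, 17.9 and 60.1 FPKM against 1.15, 1.66 and 1.88 FPKM, a difference of 3.39 ± 0.90 (SE) with a limma adjusted p of 0.0404 and a range of 0.00106 to 0.292 over the alternatives. Every blastema library was above every stump library for both genes. Neither passed without blastema library 2, without blastema library 3 or without either stump sample. With 0.41 to 1.24 FPKM in the brain, mrps35.S was low there too, while mrps2.L (gene12843) read 5.04 to 10.1 FPKM.

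Blastema and stump were also compared within each device group. With silk the median over 88 members was -0.05 on the log2 scale against 0 over all genes, with 5 members higher in all samples, against 2.81%, and 3 lower, against 3.46%. With progesterone it was -0.24 against 0.29, with 12 members higher, against 14.8%, and 6 lower, against 3.17%. Limma called 0 members at an adjusted p under 0.05 in both, against 0.447% and 0.0496% of all genes, and limma-voom called 0 members and 0% of all genes. Before adjustment, 5 members were higher and 8 lower at p under 0.05 with silk, against 4.51% and 6.87% of all genes, and 8 higher and 5 lower with progesterone, against 12.3% and 2.49%. Leaving out blastema silk library 1 raised the silk count to 3, all lower, against 0.947% of all genes lower, and leaving out stump silk library 2 raised it to 2, both lower, against 0.748%. Leaving out the averaged blastema progesterone libraries 1 and 3 gave 3 members higher and 9 lower, against 10.5% and 5.36% of all genes. That fit compares 1 blastema sample, the shallowest library with 49 members at 0, and assumes that it varies like the other groups. Mrpl39.L, specific to the large subunit, had the smallest p with silk, at 2.99, 0 and 0 FPKM in the blastema and 5.86, 4.50 and 3.89 FPKM in the stump (difference -1.84 ± 0.57, SE, limma adjusted p = 0.2). Mrps34.S followed with -1.77 ± 0.58 (SE, limma adjusted p = 0.229) and mrpl32.L with -1.97 ± 0.65 (SE, limma adjusted p = 0.236). With progesterone mrpl32.L read 5.29, 7.03 and 1.44 FPKM in the blastema and was at 0 in all stump libraries (difference 2.57 ± 0.73, SE, limma adjusted p = 0.192), followed by mrps16.L with 1.91 ± 0.62 (SE, limma adjusted p = 0.224) and mrps5.L with -1.59 ± 0.58 (SE, limma adjusted p = 0.251).

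The difference of the device effect between blastema and stump was tested as an interaction in one fit. The silk effect was more positive in the blastema in 58 of 88 members and less so in 30, with a median of 0.56 against -0.84 over all genes. The progesterone effect was more positive in 55 and less so in 33, with a median of 0.35 against -0.47. More positive includes less negative, since most members were lower in mean with silk than without a device in both tissues. The silk and progesterone contrasts share the samples without a device and so are not independent. They also reuse the samples of the comparisons within each tissue. Limma called 0 members at an adjusted p under 0.05 in both, against 0.47% and 0.00473% of all genes, and limma-voom called 1 higher and 1 lower for silk, against 0.165% and 15.1%, and 0 for progesterone, against 0.00709% and 0.775%. Before adjustment, 7 members were higher and 2 lower at p under 0.05 for each device, against 1.04% and 17% of all genes for silk and 1.54% and 8.66% for progesterone. The smallest silk values belonged to mrps25.S (2.74 ± 0.82, SE, limma adjusted p = 0.107), mrpl16.S (1.92 ± 0.73, adjusted p = 0.185) and mrps31.L (2.54 ± 0.97, adjusted p = 0.187). For progesterone they belonged to mrpl32.L (3.53 ± 1.03, SE, limma adjusted p = 0.269), mrpl21.L (3.56 ± 1.20, adjusted p = 0.327) and mrps16.L (2.22 ± 0.87, adjusted p = 0.391).

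Without a device the summed member level was 641 to 696 FPKM in the brain and 677 to 693 FPKM in the stump, and these ranges overlapped. Of 88 members, 50 were higher in mean in the brain and 38 lower, with a median of 0.16 on the log2 scale against 0.43 over all genes. All samples were higher in the brain in 29 members, against 47% of all genes, and lower in 14, against 12.3%. At an adjusted p under 0.05 limma called 0 members, against 15.2% of all genes as higher and 2.19% as lower. At an unadjusted p under 0.05, 2 members were higher and 0 lower, against 23.1% and 3.77% of all genes, and limma-voom called 4 as higher and 0 as lower, against 33.6% and 5.41%. The small subunit had a median of 0.34, with 15 of 32 members higher in all samples and 2 lower, and the large subunit 0.05, with 14 of 55 higher and 11 lower.

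Mrpl3.L read 2.11, 4.88 and 4.24 FPKM in the brain and 0.22, 0 and 0.52 FPKM in the stump, a difference of 2.08 ± 0.90 (SE, limma adjusted p = 0.134). Mrpl46.S read 6.01, 2.76 and 2.03 FPKM against 1.04, 0.38 and 0 FPKM, a difference of 1.59 ± 0.69 (SE, limma adjusted p = 0.136). Mrpl1.L, a protein of the stalk at the exit side of the ribosome, read 8.18, 5.96 and 7.60 FPKM against 3.26, 3.42 and 1.49 FPKM, a difference of 1.03 ± 0.61 (SE, limma adjusted p = 0.320). Brain libraries were above all stump libraries for these 3 genes. Among the stalk proteins, mrpl11.L read 10.9, 12.2 and 11.6 FPKM in the brain against 2.46, 4.83 and 4.58 FPKM in the stump, also without overlap. Other genes of mitochondrial translation had a median of 0.43 between these tissues, the same as over all genes. Of their 58 copies 2 passed by limma as higher in the brain and 0 as lower, below the 15.2% and 2.19% of all genes. Hars2.L, a histidyl-tRNA synthetase, stood at 38.5 ± 4.14 against 11.5 ± 3.15 FPKM (SD, n = 2 each) and polg.L, the mitochondrial DNA polymerase, at 5.75 ± 0.863 against 1.22 ± 0.382 FPKM. Their differences were 1.68 ± 0.49 and 1.61 ± 0.42 (SE), with adjusted p of 0.0190 and 0.00919 by limma. Respiratory chain subunits went the other way, with a median of -1.21 and 9 of 118 lower by limma, and cytosolic ribosomal proteins had -0.88 with 2 of 118 lower, against the same 2.19%.

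**Figure D5:**
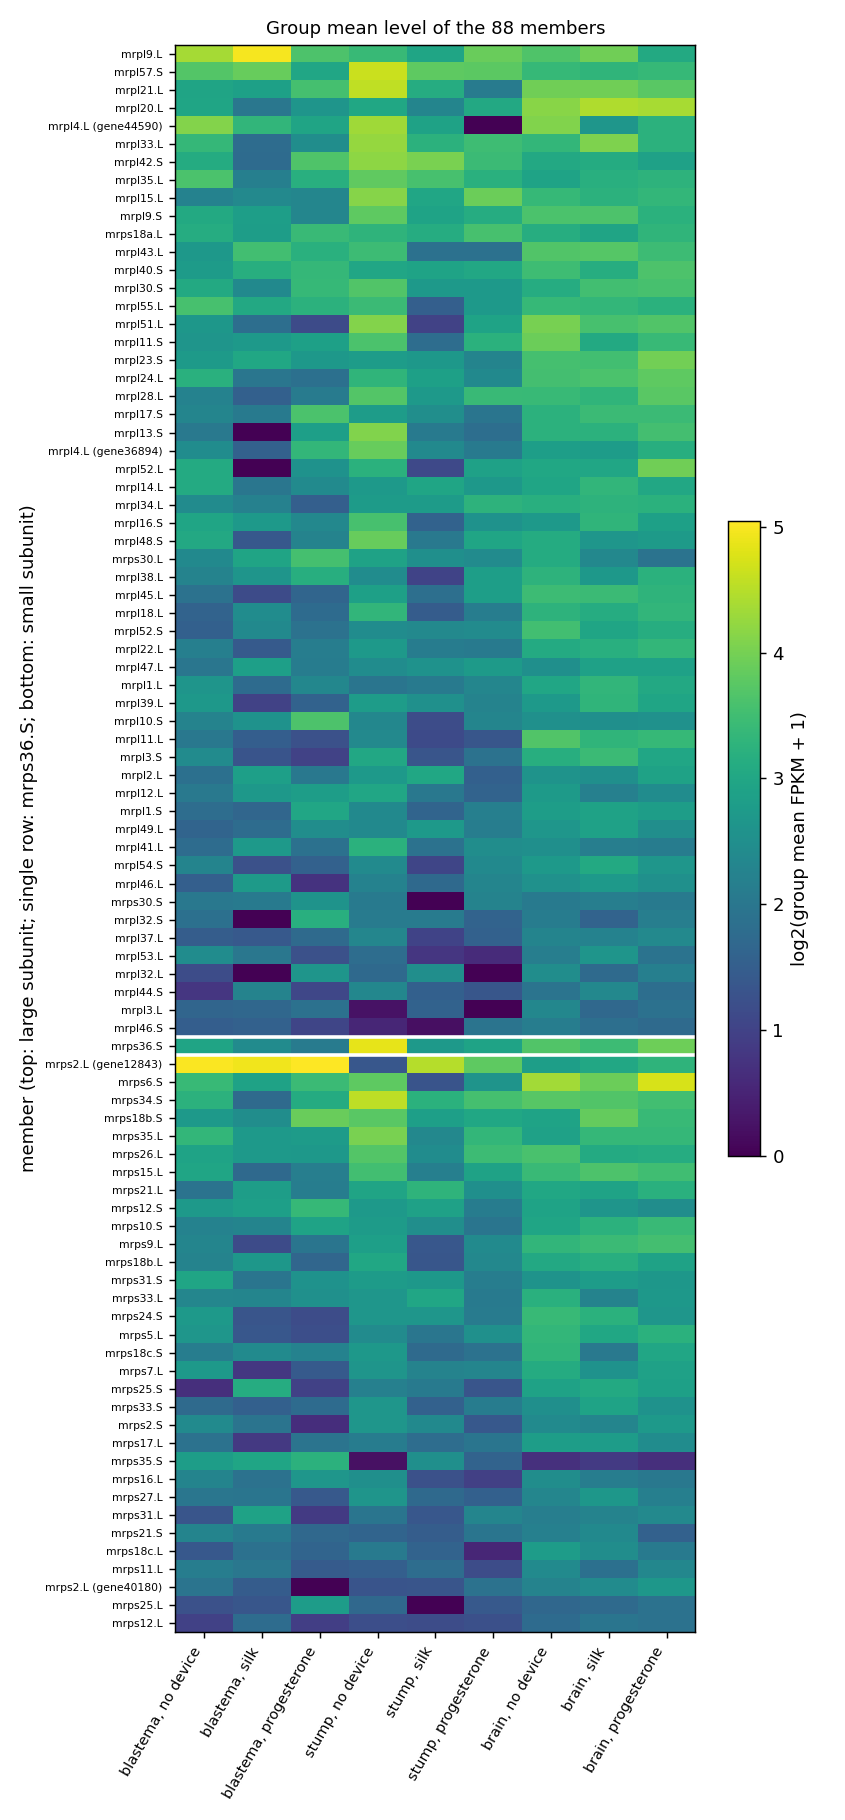
Each row is a member and each column a group of tissue and treatment, with colour for log2(group mean FPKM + 1). Large subunit members are at the top, mrps36.S between the white lines and small subunit members at the bottom. Brain columns are more even than limb columns. Among the dark members in the stump without a device are mrps35.S, mrpl3.L, mrpl46.S and mrps2.L (gene12843), and mrps35.S is dark in the brain too.

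The shares of homeologous copies in a protein's messages ranged from near-equal to uneven, with .L shares of 53% for mrpl1 and 45.8% for mrpl32. Reads shared between alike copies make all these splits uncertain. Over the 16 base symbols with a single .L and a single .S gene, the .L share of the summed average level was most uneven for mrps12, at 23.6%, mrps35, at 71.0%, mrpl3, at 29.8%, and mrps21, at 67.7%. These averages cover groups that differ widely, from 8.85% to 37.6% for mrps12, 40.5% to 98.95% for mrps35, 0% to 72.9% for mrpl3 and 42.0% to 82.9% for mrps21. In the deepest library of each group the share of mrps12 was 37.2%, over 1.5 times its average, and those of mrps35, mrpl3 and mrps21 were 73.3%, 25.7% and 72.4%. The share moved most between tissues without a device for mrps25, at 69.6% in the blastema, 38.5% in the stump and 25.4% in the brain. It moved from 79.5% to 65.2% and 40.1% for mrpl52, from 50.3% to 89.3% and 59.1% for mrpl46, and from 60.5% to 98.95% and 91.1% for mrps35, in the same order of tissues. For mrps25 the values behind the shares were low, with mrps25.L at 1.63, 0 and 2.49 FPKM and mrps25.S at 1.80, 0 and 0 FPKM in the blastema, so its share there rests on a few reads. The mrpl46 share ran from 0% to 75.4% over blastema samples without a device, which covers the 49.1% to 68.2% of the brain samples. For mrpl52 the blastema samples, at 67.5% to 100%, overlapped the stump samples, at 58.6% to 69.1%. For mrps35 the .S copy was above 0 in all 27 libraries, and in the stump without a device it lay under 0.3 FPKM in all 3. Mrps18b and mrps18c, paralogs in the small subunit, had .L shares of 36.6% and 38.6%, and mrps18a.L, a paralog placed in the large subunit, read 6.66 to 10.8 FPKM in the stump without a device and 6.10 to 8.85 FPKM in the brain without a device, ranges that overlap.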

How the data were processed

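RNA was measured in 27 libraries, 3 for each of 9 groups. Per the labels' protocols, total RNA was isolated with TRIzol, depleted of ribosomal RNA, made into Kapa RNA HyperPrep libraries and read on a HiSeq2000. FastQC, Trimmomatic, STAR, RSEM and edgeR are named, without versions, per the submitters' processing notes, and neither genome build, annotation nor strandedness is stated in those notes or in the labels. The authors deposited library values whose unit is not stated and which were taken as FPKM, since value times estimated length sums to one total in all libraries. The deposited group means are an average signal per the file headers, and the deposited log2 fold changes, p-values and q-values are the authors' own, from a test whose kind is not stated. Of 42903 genes, 12143 are unnamed, and the unused library columns numbered 0.

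The members and gene lists were chosen with earlier results of these data known. Genes with at least 1 FPKM in 3 samples were transformed to log2(FPKM + 1) and fitted by limma (3.58.1, under R 4.3.3) without a block, with Benjamini-Hochberg adjustment over all genes tested and a threshold of 0.05. All samples of a tissue entered the within-tissue fits and all 9 groups the fit across tissues. The log2(FPKM + 1) scale understates changes of low genes. Gene lengths and reads were estimated from the FPKM and the deposited group means. Count models such as edgeR were not fitted, because only 67.8% to 76.2% of the low values came within 0.1 of an integer number of reads. The estimated reads served for limma-voom, as an alternative, and for an approximate comparison of libraries. Limma-voom adds the same small count to each library, so genes near 0 come out higher in shallower groups. The size of this offset in its calls was not tested. Library pairs with fewer than 1% of genes differing (by a chi-square test of those reads) were called near-identical, and within a group averaged. The fit was also run on simulated counts. Those had one fixed spread and drew near-identical libraries independently, so that run does not measure its accuracy on these data.

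Genes named are the 3 members of smallest p per comparison, those called, fixed role anchors, the 5 most abundant, the 5 most often at 0, 4 uneven and 4 tissue-dependent homeolog pairs, and called genes and fixed anchors of related lists. Alternatives were another scaling, pseudocount 0.1, no filter, a filter of 10 reads, limma-voom, every library as a sample, a replicate block and leaving out each sample.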

Additional observations from a re-analysis of the deposited data

How the results depend on the processing

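No called difference changed sign under the alternatives run. The distance of the members' median from that of all genes ran from -2.68 to -1.41 for silk and -1.85 to -1.11 for progesterone against no device in the stump, and from -2.59 to -1.36 between blastema and stump without a device. It crossed 0 in the blastema, from -1.34 to 0.49 for progesterone against no device and from -0.56 to 0.53 for silk. Limma called 0 members in the stump for silk against no device, as reported. With limma-voom on estimated reads 2 were higher (mrps2.L, gene12843, and mrps35.S), against 23.3% of all genes higher. With every library a sample 1 was lower (mrps6.S), against 0.778% of all genes lower. With pseudocount 0.1 the count was 1, lower, for silk against no device in the blastema (mrpl32.S), against 0.711% of all genes lower. For progesterone against silk in the stump it was 1, higher (mrps30.S), against 0.14% higher. Between brain and stump without a device 0 became 1, lower, with median-of-ratios scaling, against 5.16% of all genes lower. There it was 4 with limma-voom and 1 with every library a sample, all higher, against 33.6% and 23.7% higher. Between blastema and stump without a device, 2 higher became 1 higher with pseudocount 0.1, against 4.57% of all genes higher. It was also 1 higher with a filter of 10 reads, against 15.5%. With smad4.1.S left out (an alternative chosen after seeing the data) it was 1 higher, against 2.5%. Limma-voom called 4 higher and 8 lower, against 60.9% and 2.04% of all genes. Median-of-ratios scaling called 1 higher (mrps35.S) and 2 lower (mrps25.S and mrps34.S), against 1.1% and 1.23%. With every library a sample 2 were higher and 1 lower, against 18.4% and 1.15%. For the silk effect between blastema and stump, 0 became 1 higher and 1 lower with limma-voom, against 0.165% and 15.1% of all genes. With every library a sample it was 1 higher, against 0.164% higher. The cause of these changes was not tested. Leaving out 1 sample gave 0 to 1 members for silk against no device and for progesterone against silk in the brain, 0 to 2 between blastema and stump without a device, 0 to 3 with silk and 0 to 12 with progesterone, where the 12 rest on a group of 1 shallow library. Beside the largest of these counts, other than the 12, stood 0.0751% of all genes lower and 0.244% higher in the 2 brain comparisons. Between blastema and stump the shares were 3% higher without a device and 0.947% lower with silk. Counts over all genes moved more, from 3 to 26640 between blastema and stump without a device (1724 as reported) and 4226 to 16530 between brain and stump (7343).

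The labels do not say whether replicate numbers pair libraries. Same-numbered libraries of a tissue under different treatments correlated over 0.1 in 5 of 27 pairs, with correlations of -0.12 to 0.20. Same-numbered libraries of different tissues under one treatment did so in 0 of 27 pairs, with correlations of -0.43 to 0.097. The numbers were therefore not taken as pairs. A replicate block was also fitted with every library a sample. It called 1 member lower (mrps6.S) in the stump for silk against no device, against 0.678% of all genes lower. Between brain and stump without a device it called 2 higher (mrpl46.S and mrpl3.L), against 22.4% of all genes higher. For blastema against stump without a device it called 2 higher, against 13.5% higher.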
